A study of Homo sapiens with 4 samples.

Results

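The 46 genes described here encode the proteasome, its caps, its activators and its dedicated assembly chaperones. They were taken by symbol: PSM followed by A, B, C, D, E, F or G and a number, leaving out PSMB8 and PSMB9. They are 46 of the 36601 genes in the files. The name rule itself used no expression value, though the members were chosen with earlier results of these data known. All 46 were found. They lie on 17 chromosomes, 8 of them on chromosome 14, by the GENCODE release 29 annotation of GRCh38. UMI counts (distinct transcript molecules, by unique molecular identifier) of 44 members passed the filter on low counts. PSMA8 (chr18:26133852-26193355), a testis alpha subunit, and PSMB11 (chr14:23042167-23044276), a thymus beta subunit, had 0 UMIs in all 12 cultures, so no fold change or count of called members covers them, while sums over genes and promoter windows include them.

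The proteasome degrades proteins tagged with ubiquitin. Its 20S core is a stack of alpha and beta rings. The alpha rings gate the chamber, and the beta subunits PSMB5, PSMB6 and PSMB7 carry the constitutive peptidase sites. PSMB10 is the interferon-inducible subunit that takes the place of PSMB7 in the immunoproteasome, a core found in cells of the immune system and used in antigen presentation. The 19S cap, made of a lid and a base, binds the ubiquitin tag and unfolds the substrate with 6 ATPases (base). PSME1 and PSME2 form PA28, an activator of the core that does not need ubiquitin. In macrophages and microglia, lipopolysaccharide (LPS), a bacterial cell wall component sensed by TLR4, switches on inflammatory genes.

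The data are single-cell RNA counts of microglia-like cells made from the H9 human embryonic stem cell line, in 12 cultures that all share the genotype of that line. Monocyte-like cells harvested on day 25 were kept 7 days in TIC medium (a serum-free microglia medium). SemaLPS cultures received 2 µM semagacestat, an inhibitor of the γ-secretase protease, for 22 h and 200 ng/mL LPS for the last 6 h. LPS cultures received DMSO, the inhibitor's solvent, and LPS. Sema cultures received semagacestat and PBS, and Ctrl cultures DMSO and PBS. Each condition had 3 cultures, all collected with 5 µM actinomycin D, which blocks transcription. They were marked with 1 hashtag antibody each, pooled, and divided into 2 libraries. The cultures of a condition are numbered 1, 2 and 3, and the labels leave the meaning of a number unsaid. P-values set a difference against the spread between these 12 cultures of 1 line only. Same-numbered cultures deviated together, and only fits with the number as a block pair them. In the other fits that spread includes differences between the numbers.

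The files held 900761329 UMIs in 28943 barcodes, of which 15050 cells with 1 hashtag were kept. A culture kept 1053 to 1663 cells and 30433501 to 51793504 UMIs. The libraries shared 91 barcodes. The Sema-3 hashtag had thresholds of 309 and 205 counts in the libraries, against 10 to 116 for the other hashtags. Leaving Sema-3 out ended the call of PSMC4 in SemaLPS against Sema cultures and, in the fit with a replicate block, those of PSMC4, PSME1 and PSMG2 in Sema against Ctrl cultures, as given with these genes. All 12 genes of the microglia and macrophage list passed the filter, and TYROBP led it. That list summed to between 7284 and 8503 CPM (counts per total UMIs, scaled between cultures) over the 12 cultures. Erythroid and megakaryocyte genes stayed at or below 0.0603 CPM in sum. A member's summed count per culture was between 577 and 25015 UMIs among the 44. The coefficient of variation over the 3 cultures of a condition had a median of 3.34% (176 values, 0.188 to 12.97%), and the 3 values over 10% were all of PSMC4.

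Upstream sequences of 5 members are shown: PSME2, PSMA6 and PSMA3 had the largest fold changes with LPS, PSME4 fell in both comparisons, and PSMB10 is the interferon-inducible subunit. RefSeq (GRCh38.p14) gave a promoter window, 250 bases before to 50 after a transcript start, for 40 of the 46 members (48 windows, since some have several starts). PSMA7, PSMB1, PSMB6, PSMB7, PSMD4 and PSMG3 had no entry. The 200 bases before the start are printed 5′ to 3′ along the gene, with matches to the searched motifs in capitals:
PSME2, chr14:24146611-24146810, minus strand: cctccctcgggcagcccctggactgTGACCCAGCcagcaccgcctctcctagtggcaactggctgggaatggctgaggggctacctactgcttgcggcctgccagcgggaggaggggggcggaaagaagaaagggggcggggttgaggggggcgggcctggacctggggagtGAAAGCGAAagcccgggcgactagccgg
PSMA6, chr14:35292117-35292316, plus strand: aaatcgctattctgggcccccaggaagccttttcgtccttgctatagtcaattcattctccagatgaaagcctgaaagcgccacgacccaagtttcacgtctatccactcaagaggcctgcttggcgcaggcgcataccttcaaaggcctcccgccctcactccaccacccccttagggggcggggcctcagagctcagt
PSMA3, chr14:58244643-58244842, plus strand: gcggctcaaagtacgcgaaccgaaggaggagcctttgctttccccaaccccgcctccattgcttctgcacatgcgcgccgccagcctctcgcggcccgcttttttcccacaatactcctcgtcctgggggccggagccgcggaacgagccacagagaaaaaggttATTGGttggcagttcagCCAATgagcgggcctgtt
PSMB10, chr16:67936851-67937050, minus strand: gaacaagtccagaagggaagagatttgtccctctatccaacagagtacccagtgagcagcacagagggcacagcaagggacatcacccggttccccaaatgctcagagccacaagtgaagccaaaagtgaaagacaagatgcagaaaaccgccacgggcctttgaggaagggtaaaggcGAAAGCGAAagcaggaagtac
PSME4, chr2:53970994-53971193, minus strand: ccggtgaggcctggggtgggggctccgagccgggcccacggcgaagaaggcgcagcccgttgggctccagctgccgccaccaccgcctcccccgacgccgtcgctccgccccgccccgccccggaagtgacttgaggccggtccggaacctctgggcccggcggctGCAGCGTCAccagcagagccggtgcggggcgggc

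In PSME2 the capitals are TGACNNNGC, the letters of an antioxidant response element, beginning at position -175, and further on the reverse complement of TTCNNTTTC, from the core of an interferon-stimulated response element, at -28. PSMB10 held the same 9 letters, GAAAGCGAA, at -21. In PSMA3 the capitals are CCAAT, once on each strand, at -35 and -18. PSME4 held the reverse complement of the antioxidant letters at -34, and PSMA6 none of the motifs. Both strands of the whole windows were searched for these 3 motifs and for TTCNNNGAA (a GAS element) and GGGANTTTC (from a κB site), and no matches overlapped in the printed stretches. The interferon letters were in 7 of 48 member windows (14.6%), those of PSMA4, PSMB4, PSMB10, PSMC2, PSME1, PSME2 and PSMG4, and in 8.11% of all 35116 windows. The antioxidant letters were in 14 member windows (29.2%) and 13.3% of all, CCAAT in 19 (39.6%) and 34.6%, the GAS letters in 7 (14.6%) and 7.66%, and the κB letters in 0 and 1.28%. A match to these letters is a description and not a binding site.

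LPS raised most proteasome genes, in DMSO and in semagacestat cultures. Of the 44 members, 37 rose and 1, PSME4, fell in LPS against Ctrl cultures, and 6 did not pass the test (edgeR quasi-likelihood test, Benjamini-Hochberg adjusted p under 0.05 over 15097 genes). Among all genes tested, 30.3% rose and 28.9% fell. Among the 5281 genes averaging 20 or more CPM, a level that 43 of the 44 members reached, 49.6% rose. In SemaLPS against Sema cultures 36 members rose and 2, PSME4 and PSMG3, fell, where 31.0% of all genes rose, 30.3% fell, and 51.1% of those at 20 or more CPM rose. The median log2 fold change of the members was 0.35 in both comparisons, a fold of 1.27 and 1.28, against -0.02 in both for all genes. For the genes at 20 or more CPM the median was 0.12 in both comparisons. LPS and Ctrl cultures did not overlap in 40 of the 44 members, and in 63.4% of all genes and 76.1% of those at 20 or more CPM. SemaLPS and Sema cultures did not overlap in 38 members, and in 66.7% of all genes and 78.2% of those at 20 or more CPM.

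The scaling sets the zero of these changes. With CPM scaled by total UMIs alone, instead of edgeR's TMM factors (trimmed mean of M values), 25 members rose and 4 fell in LPS against Ctrl cultures, where 16.5% of all genes rose and 46.8% fell. In SemaLPS against Sema cultures 26 members rose and 8 fell, where 17.1% of all genes rose and 48.1% fell. PSMC2, PSME4, PSMG2 and PSMG3 fell in both comparisons with that scaling, and PSMB10, PSMD5, PSMF1 and PSMG4 also in SemaLPS against Sema cultures. That scaling moved the median of all genes to -0.22 and -0.23 on the log2 scale. Relative to the median of all genes, the median member stood 0.37 higher in both comparisons with TMM, and 0.36 and 0.37 higher with total UMIs. With DESeq2's size factors in edgeR, 37 members rose and 1 fell in LPS against Ctrl cultures, as with TMM. In SemaLPS against Sema cultures 36 rose and 2 fell, again as with TMM. Members called higher with TMM but not with total-UMI scaling were PSMB2, PSMB4, PSMB10, PSMC5, PSMC6, PSMD2, PSMD3, PSMD9, PSMD10, PSMD13, PSMF1 and PSMG1 in LPS against Ctrl cultures. Of these, PSMB10, PSMC6, PSMD3 and PSMF1 changed sign. In SemaLPS against Sema cultures they were PSMB4, PSMC4, PSMC5, PSMC6, PSMD2, PSMD3, PSMD9, PSMD10, PSMD13 and PSMG1, and PSMB4 and PSMD3 changed sign. On the total-UMI scale, the 46 genes held 0.550, 0.555 and 0.586% of all UMIs in SemaLPS cultures, 0.543, 0.552 and 0.569% in LPS cultures, 0.485, 0.491 and 0.508% in Sema cultures, and 0.470, 0.481 and 0.503% in Ctrl cultures. Every LPS-treated culture was above every culture without LPS.

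**Figure D1:**
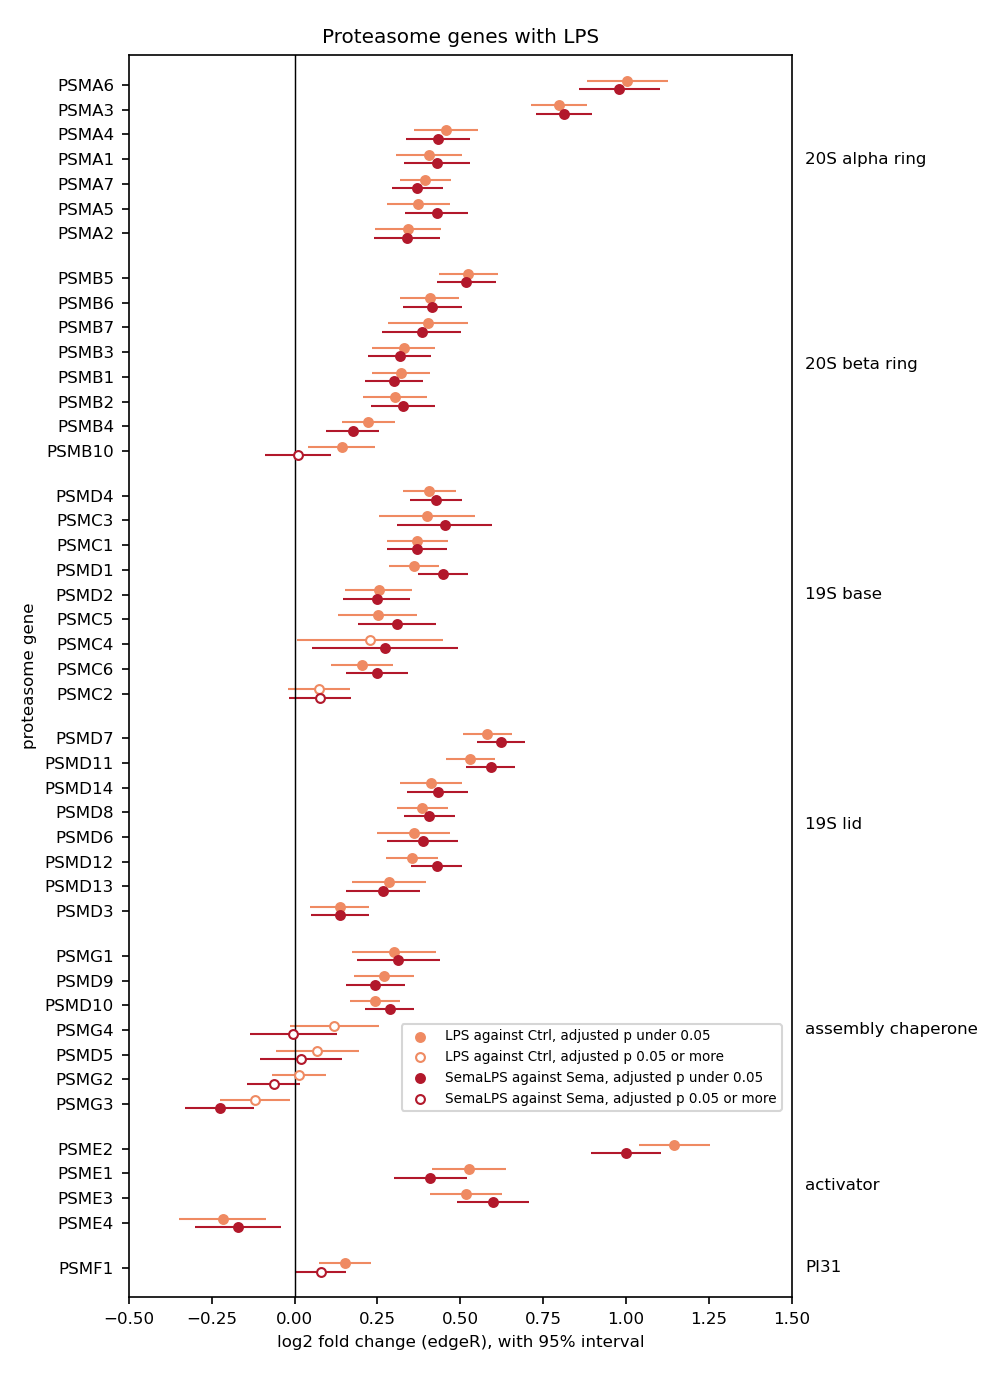
Log2 fold change (x axis) of the 44 members tested (y axis), by role, for LPS against Ctrl (orange) and SemaLPS against Sema (dark red), TMM-scaled, with 95% intervals; filled points passed adjusted p under 0.05. PSME2, PSMA6 and PSMA3 stand furthest right, most other core and cap genes lie between 0.2 and 0.6, and PSME4 lies left of 0; with total-UMI scaling all points shift left by about 0.2.

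Where 2 fold changes follow each other below, the first is for LPS against Ctrl and the second for SemaLPS against Sema cultures, unless named otherwise. All 7 alpha ring genes tested rose in both comparisons, with a median log2 fold change of 0.41 in LPS against Ctrl and 0.43 in SemaLPS against Sema cultures. PSMA6, which encodes alpha1, had 258.05, 230.0 and 262.5 CPM in LPS cultures, against 130.5, 116.2 and 127.8 CPM in Ctrl cultures. It had 259.3, 246.0 and 246.6 CPM in SemaLPS cultures, against 129.1, 121.4 and 130.7 CPM in Sema cultures. Every LPS-treated culture was well above every other, with a log2 fold change of 1.00 ± 0.06 (SE, adjusted p = 3.69e-09) in LPS against Ctrl and 0.98 ± 0.06 (adjusted p = 4.18e-09) in SemaLPS against Sema cultures.

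PSMA3, alpha7, had 249.7, 236.8 and 246.1 CPM in LPS cultures, against 147.3, 133.2 and 141.2 CPM in Ctrl cultures. In SemaLPS cultures it had 253.5, 245.4 and 249.6 CPM, against 144.6, 139.6 and 142.0 CPM in Sema cultures. The groups stood apart here too, with log2 fold changes of 0.80 ± 0.04 (adjusted p = 9.57e-10) and 0.81 ± 0.04 (adjusted p = 7.22e-10), the smallest adjusted p values of the alpha ring. The antisense gene PSMA3-AS1 overlaps PSMA3, as does ARMH4 on that other strand, and without knowing whether the counting used strand, reads of such pairs cannot be told apart. AL132989.1 overlaps PSMA3 on its own strand, which counting by strand would not separate. The other 5, PSMA1, PSMA2, PSMA4, PSMA5 and PSMA7, had log2 fold changes of 0.34 to 0.46 in LPS against Ctrl cultures. PSMA6 has 4 pseudogenes by name in the annotation, PSMA2 has 3 and PSMA3 has 1, and reads shared with such copies cannot be told apart here.

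In the beta ring the 7 constitutive subunits rose in both comparisons. PSMB5, the chymotrypsin-like peptidase subunit, had 266.1, 246.0 and 257.9 CPM in LPS cultures, against 178.0, 173.0 and 184.5 CPM in Ctrl cultures. It had 268.1, 255.4 and 261.1 CPM in SemaLPS cultures, against 183.5, 175.4 and 188.9 CPM in Sema cultures. No culture overlapped, and the log2 fold changes were 0.52 ± 0.04 (adjusted p = 1.14e-07) and 0.52 ± 0.04 (adjusted p = 1.18e-07). The other peptidase subunits, PSMB6 and PSMB7, rose by 0.41 and 0.40 in LPS against Ctrl cultures. The structural subunits PSMB1, PSMB2, PSMB3 and PSMB4 rose by 0.22 to 0.33 in LPS against Ctrl cultures. PSMB4 moved least of these and by 0.17 in SemaLPS against Sema cultures, where total-UMI scaling gave -0.04.

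PSMB10, the inducible counterpart of PSMB7, had the lowest log2 fold change of its ring in both comparisons. It had 60.2, 60.4 and 59.9 CPM in LPS cultures, against 56.3, 54.4 and 52.8 CPM in Ctrl cultures. In SemaLPS cultures it had 59.9, 56.4 and 58.6 CPM, against 58.0, 54.1 and 61.3 CPM in Sema cultures. LPS and Ctrl cultures did not overlap (log2 fold change 0.14 ± 0.05, adjusted p = 0.018, and -0.07 with total-UMI scaling), whereas SemaLPS and Sema cultures did (0.01 ± 0.05, adjusted p = 0.85, 95% interval -0.09 to 0.11). With total-UMI scaling the second value was -0.20 and was called lower (adjusted p = 0.0024). The first call was lost without Ctrl-2 (0.14, adjusted p = 0.061), without Ctrl-3 (0.11, adjusted p = 0.099) and in library 1 alone (0.08, adjusted p = 0.22). The difference between the 2 responses had a log2 value of -0.13 ± 0.07 (interaction, adjusted p = 1.0), so the responses were not shown to differ.

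Ratios of UMIs within a culture need no scaling, and 2 pairs were chosen after their values were seen, so they are given with no test. There were 0.872, 0.898 and 0.879 PSMB10 UMIs per PSMB7 UMI in SemaLPS cultures, against 1.18, 1.11 and 1.14 in Sema cultures. The ratio was 0.875, 0.989 and 0.972 in LPS cultures, against 1.15, 1.17 and 1.06 in Ctrl cultures. For PA28, the PSME2 per PSME1 ratio was 1.23, 1.26 and 1.15 in SemaLPS cultures, against 0.812, 0.830 and 0.784 in Sema cultures. It was 1.20, 1.26 and 1.21 in LPS cultures, against 0.794, 0.779 and 0.816 in Ctrl cultures. LPS-treated and other cultures did not overlap in either ratio.

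**Figure D2:**
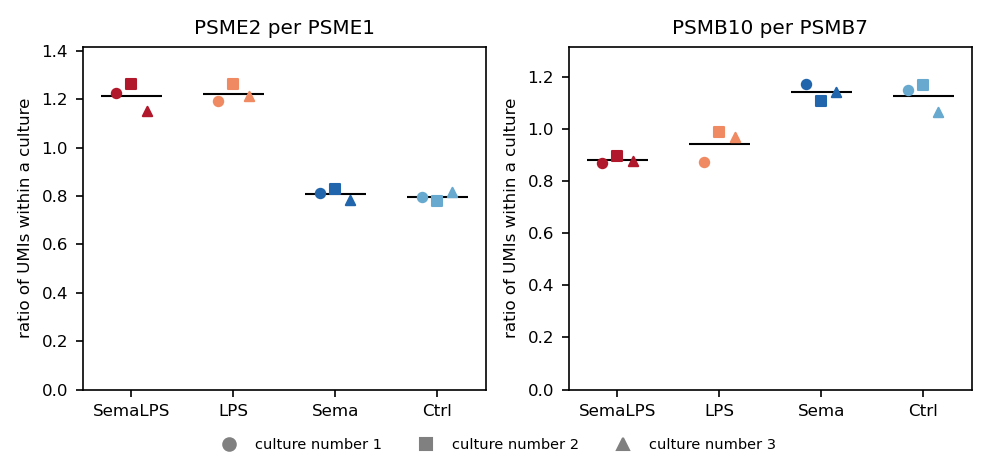
Ratio of UMIs (y axis) in each culture by condition (x axis), PSME2 per PSME1 (left) and PSMB10 per PSMB7 (right); the line is the mean of 3 cultures and the symbol the culture number. PSME2 per PSME1 is 1.15 to 1.26 with LPS and 0.779 to 0.830 without, and PSMB10 per PSMB7 is 0.872 to 0.989 with LPS and 1.06 to 1.18 without.

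Of the 9 genes of the 19S base, 7 rose in LPS against Ctrl cultures and 8 in SemaLPS against Sema cultures, with medians of 0.25 and 0.31. PSMD4, a ubiquitin receptor, had 89.7, 83.9 and 86.9 CPM in LPS cultures, against 66.98, 63.0 and 66.5 CPM in Ctrl cultures (log2 fold change 0.41 ± 0.04, adjusted p = 4.42e-07). PSMD1, a scaffold of the base, had 121.6, 115.1 and 118.4 CPM in SemaLPS cultures, against 86.6, 86.8 and 86.9 CPM in Sema cultures (0.45 ± 0.03, adjusted p = 9.2e-08). In neither gene did the cultures overlap. PSMD1 rose by 0.36 and PSMD4 by 0.43 in the other comparison. PSMD2, another scaffold, rose by 0.25 in both.

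The 6 ATPases, PSMC1 to PSMC6, had medians of 0.24 in LPS against Ctrl and 0.29 in SemaLPS against Sema cultures. PSMC1, PSMC3, PSMC5 and PSMC6 rose in both, PSMC3 by 0.40 and 0.45 and PSMC6 by 0.20 (-0.0035 with total-UMI scaling) and 0.25. PSMC1 has 13 pseudogenes by name. PSMC2 had 52.7, 50.0 and 54.1 CPM in LPS cultures, against 50.2, 48.3 and 50.5 CPM in Ctrl cultures. The groups overlapped, and its log2 fold change was 0.07 ± 0.04 (adjusted p = 0.17), and 0.08 ± 0.04 (adjusted p = 0.15) in SemaLPS against Sema cultures. With the replicate number as a block the second was called higher (0.08, adjusted p = 0.042), and with the mitochondrial limit at 20% the first (0.12, adjusted p = 0.026). With total-UMI scaling both were called lower (-0.13 in both, adjusted p = 0.015 and 0.014). The other-strand genes DNAJC2 and SLC26A5 overlap PSMC2.

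PSMC4 varied most between cultures. It had 323.8, 250.7 and 278.7 CPM in SemaLPS cultures, 285.0, 234.9 and 245.5 CPM in LPS cultures, 256.2, 211.8 and 237.5 CPM in Sema cultures, and 242.2, 198.8 and 212.5 CPM in Ctrl cultures. In each condition number 1 was highest and number 2 lowest. Its log2 fold change was 0.23 ± 0.10 (adjusted p = 0.071) in LPS against Ctrl and 0.27 ± 0.10 (adjusted p = 0.032) in SemaLPS against Sema cultures, and groups overlapped in both. With the replicate number as a block these were 0.23 ± 0.03 (adjusted p = 1.59e-06) and 0.27 ± 0.03 (adjusted p = 1.63e-07). Without the block, the second call was lost without SemaLPS-1 (0.17), Sema-2 (0.19), Sema-3 (0.27) or SemaLPS-3 (0.29), with adjusted p values of 0.051 to 0.16, and in library 1 alone (0.25, adjusted p = 0.056). LPS against Ctrl cultures gained a call without Ctrl-1 (0.31), SemaLPS-1 (0.23) or LPS-2 (0.29), with adjusted p values of 0.028 to 0.047. They also gained it without cells carrying proliferation UMIs (0.34, adjusted p = 0.016), with the mitochondrial limit at 20% (0.27, adjusted p = 0.047) and with no filter on low counts (0.22, adjusted p = 0.02). Which feature of a culture its number marks was not tested.

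All 8 genes of the 19S lid rose in both comparisons, with medians of 0.37 and 0.42. PSMD7, the partner of the deubiquitinase subunit PSMD14, had 156.6, 149.5 and 155.2 CPM in LPS cultures, against 103.2, 102.3 and 102.8 CPM in Ctrl cultures. It had 159.6, 150.4 and 155.6 CPM in SemaLPS cultures, against 99.7, 99.9 and 102.7 CPM in Sema cultures. The log2 fold changes were 0.58 ± 0.03 (adjusted p = 5.65e-09) and 0.62 ± 0.03 (adjusted p = 2.47e-09), with no overlap.

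PSMD11, which in stem cells is known to raise proteasome assembly, had 104.3, 99.4 and 102.4 CPM in LPS cultures, against 71.4, 70.5 and 70.1 CPM in Ctrl cultures. In SemaLPS cultures it had 107.4, 105.3 and 101.1 CPM, against 68.6, 70.4 and 69.2 CPM in Sema cultures. These groups stood apart as well, with log2 fold changes of 0.53 ± 0.03 (adjusted p = 1.74e-08) and 0.59 ± 0.03 (adjusted p = 5.1e-09). PSMD14, the deubiquitinase itself, rose by 0.41 and 0.43, and PSMD6, PSMD8, PSMD12 and PSMD13 by 0.28 to 0.39 in LPS against Ctrl cultures. PSMD3 moved least of the lid, by 0.14 in both comparisons (adjusted p = 0.012 and 0.0098), and by -0.07 in both with total-UMI scaling. Its calls were lost without Ctrl-2 (0.12, adjusted p = 0.059) or Ctrl-3 (0.12, adjusted p = 0.055) in LPS against Ctrl cultures, and without Sema-2 (0.12, adjusted p = 0.056) in SemaLPS against Sema cultures. Both were lost in library 2 alone (0.11 and 0.12, adjusted p = 0.079 and 0.053), and the second without cells carrying proliferation UMIs (0.10, adjusted p = 0.076).

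The activators ranged from -0.22 to 1.14 in log2 fold change in LPS against Ctrl cultures. PSME2, the beta subunit of PA28, had 182.4, 173.7 and 189.8 CPM in LPS cultures, against 84.0, 78.2 and 84.6 CPM in Ctrl cultures. It had 189.9, 183.4 and 171.3 CPM in SemaLPS cultures, against 94.0, 88.1 and 90.6 CPM in Sema cultures. No culture overlapped. The log2 fold changes were 1.14 ± 0.05 (adjusted p = 2.34e-10, a fold of 2.21) and 1.00 ± 0.05 (adjusted p = 8.11e-10, a fold of 2.00), the largest among the 44 members in both comparisons. RNF31, on the other strand, overlaps PSME2, which has 2 pseudogenes by name.

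Its partner PSME1 lies 4394 bases away on the opposite strand of chromosome 14. It had 152.6, 137.4 and 156.4 CPM in LPS cultures, against 105.7, 100.5 and 103.8 CPM in Ctrl cultures (log2 fold change 0.53 ± 0.05, adjusted p = 9.76e-07). In SemaLPS cultures it had 154.7, 145.0 and 148.5 CPM, against 115.7, 106.2 and 115.5 CPM in Sema cultures (0.41 ± 0.05, adjusted p = 1e-05). Its groups did not overlap in either comparison, and both fold changes were smaller than those of PSME2. EMC9, on the other strand, overlaps PSME1. PSME3, a nuclear relative of PA28, rose by 0.52 ± 0.05 (adjusted p = 1.05e-06) and 0.60 ± 0.05 (adjusted p = 2.02e-07), with 55.5, 52.4 and 50.0 CPM in SemaLPS cultures, against 35.2, 34.7 and 34.4 CPM in Sema cultures. BECN1, on the other strand, overlaps it.

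PSME4, which encodes PA200, an activator known from spermatogenesis and DNA repair, fell. It had 32.0, 37.2 and 33.0 CPM in LPS cultures, against 39.8, 38.1 and 40.7 CPM in Ctrl cultures. In SemaLPS cultures it had 36.0, 36.5 and 32.7 CPM, against 39.7, 40.8 and 38.2 CPM in Sema cultures. LPS-treated cultures were below the others in each comparison, with log2 fold changes of -0.22 ± 0.06 (adjusted p = 0.0073) and -0.17 ± 0.06 (adjusted p = 0.024). Without cells that carried 3 or more UMIs of 8 proliferation genes the values were -0.10 and -0.09 (adjusted p = 0.26 and 0.28). In library 1 alone they were -0.16 and -0.11 (adjusted p = 0.055 and 0.17). The second call was also lost without Sema-1 (-0.17), Sema-2 (-0.16) or SemaLPS-3 (-0.12).

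**Figure D3:**
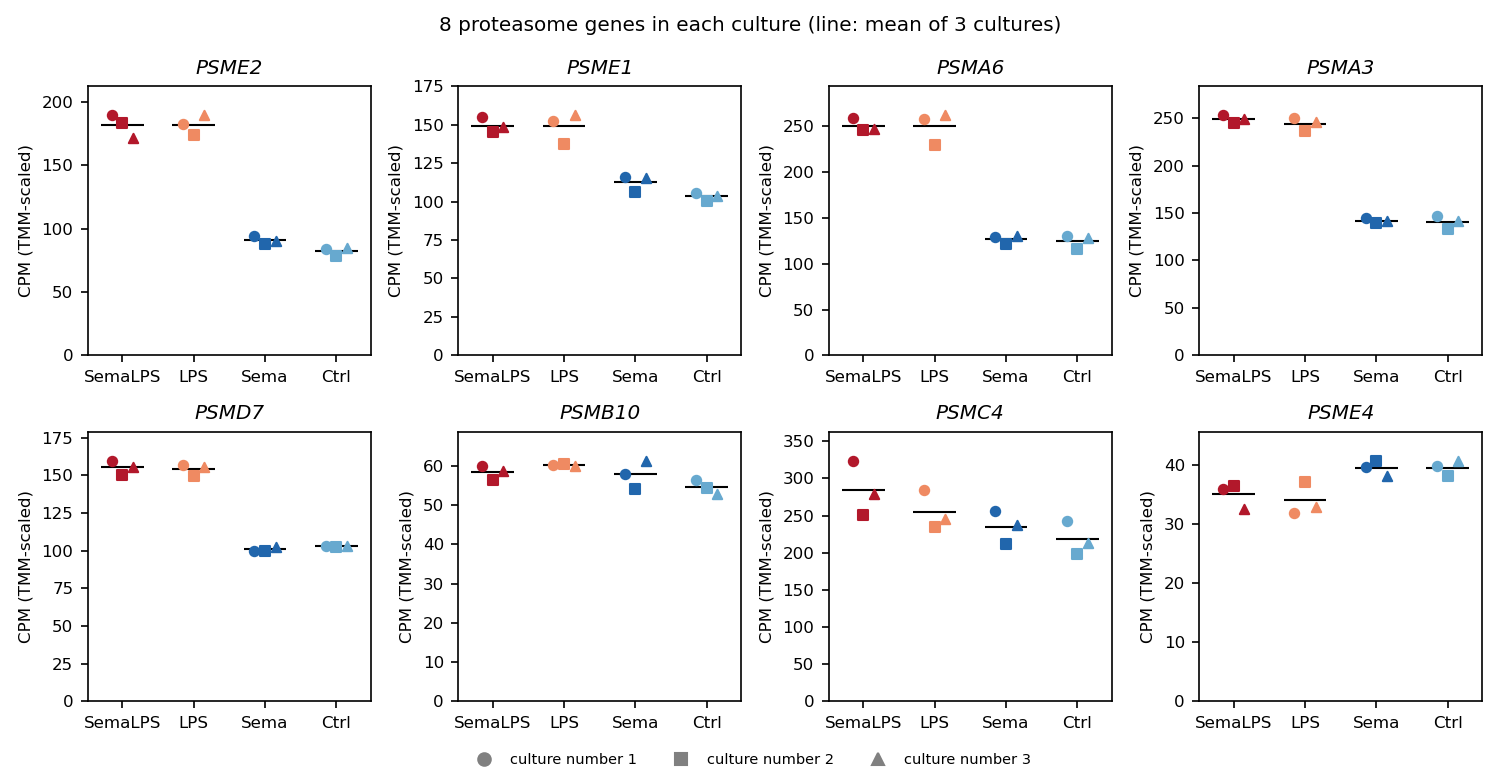
TMM-scaled CPM (y axis, from 0) of 8 members in each culture, by condition (x axis); lines are means of 3 cultures and symbols the culture numbers. PSME2 lies at 171.3 to 189.9 CPM with LPS and 78.2 to 94.0 CPM without, PSMB10 at 56.4 to 60.4 and 52.8 to 61.3 CPM, and PSMC4 is highest in number 1 in all 4 conditions.

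Among the 7 assembly chaperones 3 rose in both comparisons: PSMG1, a member of the pair that seeds the alpha ring, and the base chaperones PSMD9 and PSMD10. WDR66 overlaps PSMD9 on the same strand. PSMD10, also called gankyrin, had 61.3, 61.8 and 63.5 CPM in LPS cultures, against 51.3, 53.3 and 53.2 CPM in Ctrl cultures (log2 fold change 0.24 ± 0.03, adjusted p = 4.25e-05). It had 63.5, 61.3 and 63.2 CPM in SemaLPS cultures, against 51.1, 50.8 and 52.2 CPM in Sema cultures (0.29 ± 0.03, adjusted p = 7.42e-06). The groups did not overlap, though with total-UMI scaling both calls were lost (0.03 and 0.08).

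None of the other 4 chaperones rose. PSMG2, the partner of PSMG1, had 79.7, 75.8 and 78.2 CPM in LPS cultures, against 77.0, 76.2 and 78.2 CPM in Ctrl cultures (0.01 ± 0.04, adjusted p = 0.77). Its log2 fold change was -0.06 ± 0.04 (adjusted p = 0.16) in SemaLPS against Sema cultures, and it was called lower without cells carrying proliferation UMIs (-0.16, adjusted p = 0.014), in library 1 alone (-0.13, adjusted p = 0.025) and without Sema-2 (-0.10, adjusted p = 0.049). With total-UMI scaling PSMG2 was called lower in both comparisons (-0.19 and -0.27, adjusted p = 0.00018 and 7.06e-06). PSMG3 had 26.7, 24.3 and 25.6 CPM in SemaLPS cultures, against 31.1, 29.2 and 29.3 CPM in Sema cultures, and fell (-0.23 ± 0.05, adjusted p = 0.0011). In LPS against Ctrl cultures its value was -0.12 ± 0.05 (adjusted p = 0.051), called with the replicate block (-0.12, adjusted p = 0.024), with total-UMI scaling (-0.33, adjusted p = 0.00011) and without LPS-3 (-0.14, adjusted p = 0.037). It was also called in library 1 alone (-0.18), without cells carrying proliferation UMIs (-0.19) and with cultures assigned by the ratio of the top hashtags (-0.14), with adjusted p values of 0.013 to 0.04. PSMG4 and PSMD5 did not pass the test in either comparison, with log2 fold changes of 0.12 and 0.07 in LPS against Ctrl cultures. PSMG4 was called higher there without LPS-3 (0.17, adjusted p = 0.044). With total-UMI scaling both were called lower in SemaLPS against Sema cultures (-0.22 for PSMG4 and -0.19 for PSMD5, adjusted p = 0.015 and 0.02).

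PSMF1, which encodes PI31, a regulator and transport adapter of the core, had 40.8, 41.2 and 41.0 CPM in LPS cultures, against 37.5, 36.5 and 36.7 CPM in Ctrl cultures. The log2 fold change was 0.15 ± 0.04 (adjusted p = 0.0027) with no overlap, and -0.056 with total-UMI scaling. It was 0.08 ± 0.04 (adjusted p = 0.071) in SemaLPS against Sema cultures, where it was called higher with the block (0.08, adjusted p = 0.0495) and lower with total-UMI scaling (-0.13, adjusted p = 0.0098). The first call was lost without cells carrying proliferation UMIs (0.05, adjusted p = 0.46) and in library 1 alone (0.04, adjusted p = 0.53).

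Summed by role, the 8 alpha ring genes had 1892 ± 45.4 CPM in SemaLPS cultures, 1862 ± 81.5 in LPS cultures, 1332 ± 30.9 in Sema cultures and 1306 ± 47.2 in Ctrl cultures (SD, n = 3 each). The 7 constitutive beta genes had 1419 ± 44.8 CPM in SemaLPS, 1402 ± 61.4 in LPS, 1110 ± 35.8 in Sema and 1090 ± 23.5 in Ctrl cultures. The 9 base genes had 1003 ± 60.0 CPM in SemaLPS, 954 ± 50.7 in LPS, 805 ± 29.3 in Sema and 785 ± 41.8 in Ctrl cultures. The 8 lid genes had 902 ± 18.3 CPM in SemaLPS, 892 ± 28.6 in LPS, 668 ± 5.66 in Sema and 675 ± 9.47 in Ctrl cultures. The means of the LPS-treated cultures lay above the others in each of these 4 roles. The ratio of the LPS to the Ctrl mean was 1.43 for the alpha ring, 1.32 for the lid, 1.29 for the constitutive beta ring and 1.22 for the base, and 1.11 for the chaperones. These ratios are TMM-scaled. With total-UMI scaling the median log2 fold change of LPS against Ctrl cultures was 0.20 for the alpha ring and 0.16 for the lid. It was 0.12 for the beta ring with PSMB10, 0.04 for the base and -0.09 for the chaperones, of which 0 rose and 2 fell.

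Within conditions the number 2 culture tended to hold the lowest level. Of the 44 members, 33 were lowest in number 2 among SemaLPS cultures, 33 among LPS, 32 among Sema and 35 among Ctrl cultures. Of the 5281 genes at 20 or more CPM, 30.8% were lowest in number 2 among SemaLPS, 41.8% among LPS, 37.1% among Sema and 36.4% among Ctrl cultures. The spread between cultures was small beside the LPS change for the alpha ring: the lowest LPS-treated sum, 1770 CPM in LPS-2, exceeded the highest sum without LPS, 1355 CPM in Sema-3.

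In single cells the members' share was higher with LPS at low, middle and high percentiles. Cells had a median of 163 to 175 member UMIs in LPS and SemaLPS cultures and 126 to 138 in Sema and Ctrl cultures, at 30020 to 31422 and 27396.5 to 28210 median UMIs per cell. As a share of a cell's UMIs, the median was 0.580, 0.543 and 0.546% in SemaLPS cultures, 0.562, 0.528 and 0.542% in LPS cultures, 0.489, 0.466 and 0.476% in Sema cultures, and 0.484, 0.454 and 0.469% in Ctrl cultures. The 10th percentiles were 0.398 to 0.426% with LPS and 0.342 to 0.374% without, and the 90th 0.709 to 0.782% and 0.605 to 0.679%, so each of the 3 points was higher in every LPS-treated culture. The median cell had 5 PSME2 UMIs in each LPS-treated culture and 2 in each of the others. For PSMA6 the median was 6 to 7 UMIs in LPS-treated cultures and 3 to 4 in the others.

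**Figure D4:**
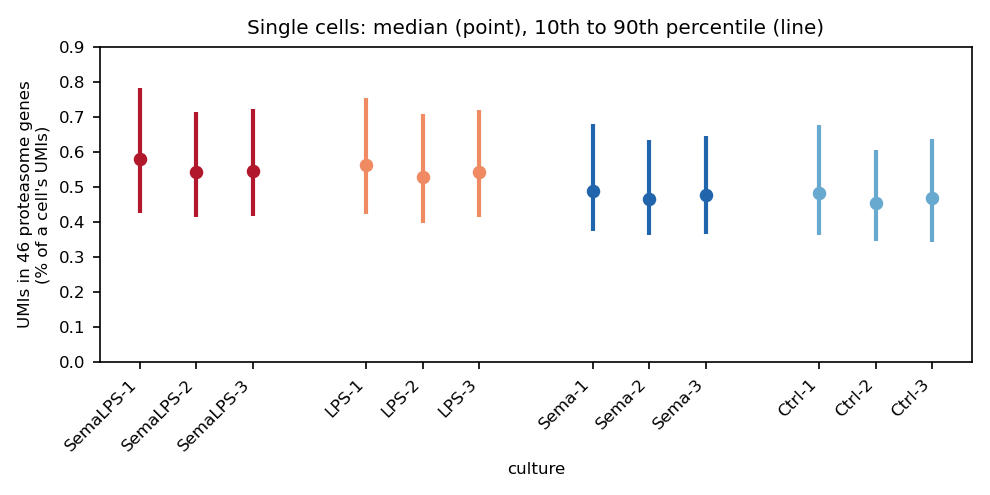
Share of a cell's UMIs in the 46 genes (y axis, %) for each culture (x axis), with the median as a point and the 10th to 90th percentile as a line. Medians are 0.528 to 0.580% with LPS and 0.454 to 0.489% without, while the ranges of single cells overlap between conditions.

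Other measures differed with LPS, some with overlapping cultures. Between 41.9 and 45.2% of kept cells carried 3 or more UMIs of the 8 proliferation genes in LPS-treated cultures, and 51.7 to 60.2% in the others. The summed level of that list, all 8 genes past the filter, was 289 to 429 CPM in SemaLPS cultures, 232 to 330 in LPS cultures, 402 to 495 in Sema cultures and 291 to 501 in Ctrl cultures. Without those cells 37 members rose and 1 fell in LPS against Ctrl cultures, and 35 rose and 2 fell in SemaLPS against Sema cultures. These were not all the members called with all kept cells. In LPS against Ctrl cultures PSME4 and PSMF1 lost their calls, PSMC4 was called higher and PSMG3 lower. In SemaLPS against Sema cultures PSME4 and PSMD3 lost their calls and PSMG2 was called lower. Of the 13641 genes tested without those cells, 3814 rose and 3694 fell in the first comparison, and 3968 rose and 3818 fell in the second. The 7 monocyte genes, led by S100A9, summed to 1438 to 1561 CPM with LPS and 399 to 482 CPM without. The 15 interferon-stimulated genes summed to 204 to 245 CPM in SemaLPS, 187 to 489 in LPS, 118 to 160 in Sema and 128 to 159 in Ctrl cultures, highest in LPS-3. Lists of other cell types had low sums. Those of neural, mast cell, and erythroid and megakaryocyte genes overlapped between cultures with and without LPS. So did the dendritic cell list, at 24.4 to 31.0 CPM with LPS and 27.8 to 36.8 CPM without. The lists given next stood apart. The 8 stromal and endothelial genes, led by PECAM1, with 4 past the filter, summed to 37.3 to 57.0 CPM with LPS and 71.0 to 109.9 CPM without. The 6 neutrophil genes, led by CSF3R, with 3 past the filter and MPO and ELANE at 0, summed to 10.4 to 12.5 CPM with LPS and 15.6 to 18.9 CPM without. The 5 T and NK cell genes, led by NKG7, with 4 past the filter, summed to 23.7 to 27.9 CPM with LPS and 17.4 to 21.8 CPM without. The 5 pluripotency genes, with 2 past the filter, summed to 0.634 to 0.929 CPM with LPS and 0.195 to 0.389 CPM without. The share of 1-hashtag cells over the mitochondrial limit of 10% was 20.2 to 32.0% with LPS and 26.9 to 39.2% without. With that limit at 20%, 39 members rose and 1 fell in LPS against Ctrl cultures, and 36 rose and 2 fell in SemaLPS against Sema cultures. Of the 15597 genes tested at that limit, 4800 rose and 4607 fell in the first comparison, and 4875 rose and 4859 fell in the second. The part of these lists in the members' change, other than the proliferation list, was not tested.

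The 29 other genes of the pathway passed the filter, and 24 rose and 1 fell in each comparison, where 30.3% of all genes rose in LPS against Ctrl and 31.0% in SemaLPS against Sema cultures. With total-UMI scaling 12 rose and 5 fell in LPS against Ctrl cultures, and 13 rose and 4 fell in SemaLPS against Sema cultures. They comprise chaperones, shuttles, ubiquitin genes and regulators of proteasome transcription. NFE2L2, a stress transcription factor, averaged 371 ± 13.4 CPM in LPS cultures and 124 ± 4.86 CPM in Ctrl cultures, and 355 ± 21.2 CPM in SemaLPS cultures and 120 ± 4.03 CPM in Sema cultures (SD, n = 3 each). Its log2 fold change of 1.58 ± 0.05 (adjusted p = 8.57e-12) in LPS against Ctrl cultures exceeded that of any member. NFE2L1, the factor known for restoring proteasome genes when the proteasome is inhibited, rose by 0.41 and 0.50. NPLOC4, a cofactor of the segregase VCP, rose by 0.64 ± 0.05 (adjusted p = 1.45e-07) and 0.79 ± 0.05 (adjusted p = 1.39e-08). USP14, a deubiquitinase on the cap, rose by 0.59 ± 0.05 (adjusted p = 9.52e-08) and 0.62 ± 0.05 (adjusted p = 4.49e-08). ADRM1, a ubiquitin receptor, rose by 0.49 ± 0.04 (adjusted p = 2.31e-07) and 0.53 ± 0.04 (adjusted p = 1.01e-07). The core maturation factor POMP rose by 0.24 and 0.25. The base chaperone PAAF1 fell by 0.26 and 0.25, and DDI2, NGLY1, UBLCP1 and UBQLN2 did not pass the test in either comparison.

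In the fit without a replicate block, semagacestat moved no member past the test. In Sema against Ctrl cultures 0 of 44 were called by edgeR and 0 by DESeq2, where 0.0132% of all genes were called (2 genes, and 17 by DESeq2). An unadjusted p under 0.05 was found for 5 members and for 7.11% of all genes. In SemaLPS against LPS cultures 0 members were called by edgeR and 0 by DESeq2, where 0.0132% of all genes were called by edgeR as well. There an unadjusted p under 0.05 was found for 0 members and for 5.47% of all genes. The median log2 fold change of the members was 0.02 in both. A missed threshold does not show equal levels: leaving PSMC4 aside, the 95% intervals of the 43 other members reached from -0.18 (PSME3) to 0.28 (PSMG4) in Sema against Ctrl cultures and from -0.16 (PSMG3) to 0.23 (PSMC3) in SemaLPS against LPS cultures. Those bounds, from the fit without the block, correspond to folds of 0.883 to 1.21 and 0.898 to 1.18. For PSMC4 the upper bounds were 0.33 and 0.38.

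By role, the values nearest the threshold in Sema against Ctrl cultures were those of PSMG2 (0.11 ± 0.04, adjusted p = 0.63), PSME2 (0.14 ± 0.05, adjusted p = 0.64), PSMF1 (0.08 ± 0.04, adjusted p = 0.69) and PSMB10 (0.09 ± 0.05, adjusted p = 0.73). PSME2 had 94.0, 88.1 and 90.6 CPM in Sema cultures, against 84.0, 78.2 and 84.6 CPM in Ctrl cultures, with no overlap. PSME1 was also above in every Sema culture, at 115.7, 106.2 and 115.5 CPM, against 105.7, 100.5 and 103.8 CPM in Ctrl cultures. In SemaLPS against LPS cultures both genes overlapped, and PSME2 had a log2 fold change of -0.0032 ± 0.05. There the smallest unadjusted p values by role were those of PSMD1 (0.06 ± 0.03) in the base, PSMA5 (0.07 ± 0.04) in the alpha ring and PSMG1 (0.08 ± 0.06) among the chaperones, each with an adjusted p of 0.90.

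With the replicate number as a block, 3 members rose in Sema against Ctrl cultures, where 1.83% of all genes rose: PSMC4 (0.11 ± 0.03, adjusted p = 0.038), PSME1 (0.12 ± 0.03, adjusted p = 0.04) and PSMG2 (0.11 ± 0.03, adjusted p = 0.043). In SemaLPS against LPS cultures 1 rose, PSMC4 (0.15 ± 0.03, adjusted p = 0.0064), where 1.3% of all genes rose. PSMC4 was higher in each SemaLPS culture than in the LPS culture of the same number, and in each Sema culture than in the Ctrl culture of the same number. When each of the 12 cultures was left out of the blocked fit, PSMC4 kept its call in SemaLPS against LPS cultures in 11 of 12 fits, the exception being without SemaLPS-1 (0.13, adjusted p = 0.061). In Sema against Ctrl cultures PSMC4 kept it in 7, PSME1 in 5 and PSMG2 in 4 of 12 fits. The calls of all 3 genes were lost without Ctrl-1, Ctrl-2, Ctrl-3, Sema-2 or Sema-3, and some also without other cultures. Over the 12 fits the log2 fold change was 0.09 to 0.13 for PSMC4, 0.11 to 0.14 for PSME1 and 0.09 to 0.12 for PSMG2.

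**Figure D5:**
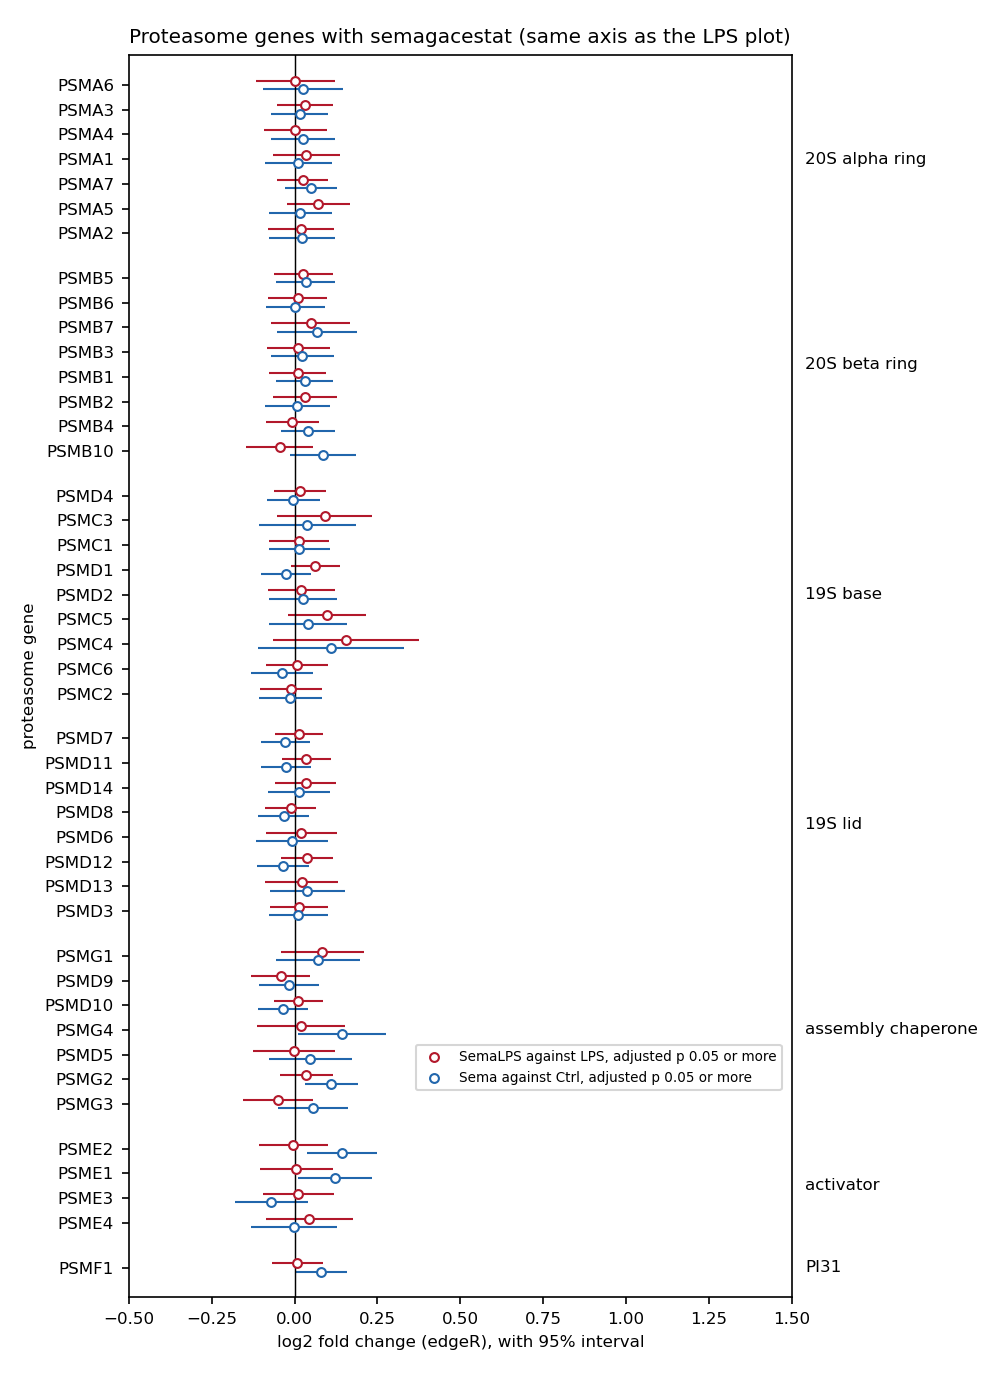
Log2 fold change (x axis, same range as in the LPS plot) of the 44 members (y axis) for SemaLPS against LPS (dark red) and Sema against Ctrl (blue), with 95% intervals and no replicate block. No point passed the test; PSMC4 has the widest intervals, up to 0.38.

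The response to LPS was also compared between semagacestat and DMSO cultures, as the interaction of both treatments. No member was called by edgeR or by DESeq2, none had an unadjusted p under 0.05, and 0.0% of all genes were called (3.66% at an unadjusted p under 0.05, and 1 gene called by DESeq2). With the replicate number as a block, 0 of 44 members and 10 of 15097 genes were called. An unadjusted p under 0.05 was then found for 1233 genes. Without the block, the interaction was most negative for PSME2, at -0.15 ± 0.07 with a 95% interval of -0.30 to 0.0024. It was most positive for PSMD1, at 0.09 ± 0.05 with an interval of -0.02 to 0.19. The comparisons share their Ctrl, Sema or LPS cultures, so their values are not independent of each other.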

How the data were processed

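Libraries used 10x 3' v3.1 chemistry, per the labels' protocols. Raw UMI counts per gene and hashtag were deposited for each called cell, without normalization; the file headers name Cell Ranger 6.0.1. The submitters' processing notes list Cell Ranger 3.0.2, Seurat 4.1.1 and hg38. Annotation and strand use in counting: not given in the sources used here. Positions come from GENCODE 29. Titles and descriptions of the libraries contradict each other on content, so each matrix was read by its feature types.

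Barcodes were assigned to cultures by hashtag counts in the manner of HTODemux (99th percentile of a negative binomial per hashtag). Those with several hashtags (22.5%) were dropped, which was the treatment of doublets. Cells needed 1000 genes or more and no more than 10% mitochondrial UMIs, and were summed per culture over both libraries. The sums went into 1 edgeR 4.0.16 fit of all 12 cultures (R 4.3.3, TMM, filterByExpr, quasi-likelihood F test), with Benjamini-Hochberg adjustment over 15097 genes. SE was taken as the log2 fold change over the square root of F. CPM are TMM-scaled. Alternatives were DESeq2 1.42.0, other scalings, no filter, each library alone, other cell filters and leaving out each culture.

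Same-numbered cultures deviated together (correlations of deviations 0.439 to 0.742 over 18 pairs, against -0.547 to 0.165 over 36 pairs of unlike number, 5281 genes), so by the data the numbers pair the cultures; the labels do not say why. Members, roles and gene lists were chosen with earlier results of these data known. Per comparison, full statistics are given for the 6 members with the largest fold changes among those called whose cultures did not overlap, for the member of each role with the smallest adjusted p, and for 4 other pathway genes. Members named beyond these were chosen after their values were seen.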

Additional observations from a re-analysis of the deposited data

How the results depend on the processing

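The leave-one-out fits with the replicate block were added after the data had been seen. Counts of members called, rises and falls together, stayed within 1.5 times their value under each alternative run, except for semagacestat with the replicate number as a block: 3 members in place of 0 in Sema against Ctrl cultures and 1 in place of 0 in SemaLPS against LPS cultures. For LPS the block gave 40 members in place of 38 in both comparisons. Of all 15097 genes, it gave 9844 in place of 8925 in LPS against Ctrl and 10229 in place of 9253 in SemaLPS against Sema cultures. Without the block, leaving out each culture gave 36 to 40 members in LPS against Ctrl cultures, 36 to 38 in SemaLPS against Sema cultures, and 0 to 0 in the other comparisons. With the block, PSMC4, PSME1 and PSMG2 kept calls for semagacestat in some of these fits, as given above. By direction, total-UMI scaling gave 4 falls in place of 1 in LPS against Ctrl cultures and 8 in place of 2 in SemaLPS against Sema cultures. Of the called members, PSMB10, PSMC6, PSMD3 and PSMF1 (-0.056) changed sign with total-UMI scaling in LPS against Ctrl cultures. PSMB4 and PSMD3 did so in SemaLPS against Sema cultures. That scaling shifts all genes downwards. PSMD5, at about 18 CPM, had the fewest UMIs of the members tested.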
